A study of Mus musculus with 4 samples.

Results

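The genes described here are molecular chaperones and protein folding factors, the proteins that help other proteins reach and keep their shape. They were chosen by name: heat shock proteins, J proteins (Dnaja, Dnajb and Dnajc), protein disulfide isomerases (Pdia), BAG factors, subunits of the cytosolic chaperonin, FK506-binding proteins, the lectin chaperones and a few factors of endoplasmic reticulum (ER) stress and quality control. Of the 6940 genes listed in the authors' deposited table, 59 carried such a name. Of these, 21 were placed in the ER, 33 in the cytosol or nucleus and 5 in the mitochondrion by what is known of their proteins. The GRCm38 annotation holds 124 genes under these names, so 65 were not listed and are not analysed here.

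The RNA came from cortical oligodendrocyte precursors of C57BL/6 mice at postnatal day 5. The cells were captured by immunopanning with antibodies to GalC and O4, grown for 6 days and differentiated with triiodothyronine, a thyroid hormone, at 40 ng/mL and harvested after 24 h. Control cells were Zdhhc5fl/fl, and the conditional knockout (cKO) cells were Olig1cre/+;Zdhhc5fl/fl, with 2 libraries per genotype. Both genotypes carried floxed Zdhhc5, which encodes an enzyme that attaches palmitate to proteins. Cre, inserted at Olig1, was present in cKO cells only. Its own effects, those of the changed Olig1 allele and those of losing Zdhhc5 cannot be told apart. No label says that libraries of the same genotype are separate animals or cultures, and p-values then measure the spread between these libraries, which may be technical.

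The listed genes held between 13672254 and 20068016 reads per library. Every listed gene had an adjusted p under 0.05 in the authors' deposited table, and these were 40.0% of the 17347 genes behind that adjustment. The 10 myelin markers were all listed and all lower in cKO, with summed values of 341713 and 343437 in the controls against 69839 and 72102 in the cKO libraries. Astrocyte markers had the highest sums, 490425 and 490897 against 740014 and 732812 over 7 of 8 markers. Gfap made up most of these sums (means of 351796 in the controls and 555415 in cKO). Of the 7 markers 5 were higher and 2 lower, S100b (log2 fold change -1.63) and Aqp4 (-0.16). The cultures thus held RNA of astrocyte markers beside that of oligodendrocytes. In such mixed samples fewer cells of a type and less RNA per cell cannot be told apart. Olig1 fell from 12036 and 11945 to 7251 and 6438 normalised reads (log2 fold change -0.81 ± 0.04 SE, adjusted p 2.48e-14 by limma). Each SE given here is limma's, for which a gene's variance was drawn toward that of genes of like level. Zdhhc5 was not analysed here.

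In the cytosol, HSP70 proteins bind unfolded stretches of a client. J proteins bring the client and start ATP hydrolysis, and HSP110 and BAG proteins exchange the nucleotide so that the client is let go. HSP90 completes some clients, and the ring-shaped chaperonin folds others, tubulin and actin among them. The ER has its own HSP70 and HSP90, lectin chaperones that hold glycoproteins, and disulfide isomerases that pair cysteines. When unfolded protein gathers in the ER, the unfolded protein response raises many of these genes through the ER stress element (ERSE), a promoter motif, while heat shock factor acts in the cytosol through the heat shock element. Myelin-forming cells pass large amounts of membrane protein and lipid through the ER.

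Promoters were compared because this motif ties several ER chaperones to a common response. RefSeq promoter windows of GRCm38.p6, 300 bases long with 250 before the start site, were matched for 50 of the 59 members. The members without a window were Cct4, Dnajc18, Dnajc2, Ero1l, Fkbp10, Hsp90aa1, Hspa13, Hspa8 and Sel1l3. The motif, CCAAT and CCACG with 9 bases of any kind between, searched on both strands, was in 39 of all 32851 windows (0.119%). It was in 6 of the 17 windows of ER members (35.3%), in 0 of the 40 windows of cytosolic or nuclear members and in 0 of the 6 of mitochondrial members. The 6 genes were Hsp90b1, Calr, Canx, Pdia6, Dnajc3 and Creld2. In the sequences below, printed along the gene's strand, capitals mark the matches. Hsp90b1 had 2 matches, which began 212 and 107 bases upstream of the start site in opposite orientations, and is shown from the start site back over 250 bases. Pdia4 is shown over the same span because it had the smallest adjusted p of the ER members in the authors' deposited table (2.03e-24). The whole motif, with its spacing, is not in it.
Hsp90b1, chr10:86705445-86705694, minus strand: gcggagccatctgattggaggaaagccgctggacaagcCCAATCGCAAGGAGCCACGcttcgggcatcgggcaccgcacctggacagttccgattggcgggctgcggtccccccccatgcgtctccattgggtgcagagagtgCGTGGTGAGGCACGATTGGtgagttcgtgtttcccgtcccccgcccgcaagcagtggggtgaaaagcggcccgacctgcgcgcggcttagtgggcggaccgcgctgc
Calr, chr8:84847050-84847118, minus strand: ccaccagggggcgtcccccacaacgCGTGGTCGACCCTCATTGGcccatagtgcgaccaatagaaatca
Canx, chr11:50325775-50325843, minus strand: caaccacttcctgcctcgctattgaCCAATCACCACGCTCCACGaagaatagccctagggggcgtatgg
Pdia6, chr12:17266466-17266534, plus strand: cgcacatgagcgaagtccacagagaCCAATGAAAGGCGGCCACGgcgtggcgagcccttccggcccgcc
Dnajc3, chr14:118937802-118937870, plus strand: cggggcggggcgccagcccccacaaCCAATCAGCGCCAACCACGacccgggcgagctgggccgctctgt
Creld2, chr15:88819495-88819563, plus strand: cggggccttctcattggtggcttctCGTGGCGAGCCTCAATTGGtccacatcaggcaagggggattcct
Pdia4, chr6:47813513-47813762, minus strand: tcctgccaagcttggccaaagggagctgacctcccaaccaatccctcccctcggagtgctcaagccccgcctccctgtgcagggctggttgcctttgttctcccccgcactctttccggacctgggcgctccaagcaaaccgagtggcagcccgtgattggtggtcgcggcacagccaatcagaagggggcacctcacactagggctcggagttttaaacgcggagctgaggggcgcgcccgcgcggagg

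The 6 genes with the motif did not move one way. Calr, Pdia6 and Creld2 had log2 fold changes of 0.16, 0.25 and 0.34, and Canx, Hsp90b1 and Dnajc3 had -0.15, -0.19 and -0.24. Of these, only Pdia6 kept its direction and its call in every fit, as described below. A second motif of the response, TGACGTGG, was in 0 of the 63 member windows and in 0.676% of all windows. The heat shock element was searched on both strands as GAA, TTC and GAA with 2 bases of any kind between each, with no mismatch allowed. Hspa8 and Hsp90aa1 were among the members without a window. The element was in 0.603% of all windows and, among member windows, only in those of Hspe1 and Hspd1. This pair of mitochondrial chaperonin genes lies head to head, with gene models that overlap. A window of each gene held the same overlapping matches on both strands, and the stretch is shown for that reason. Another Hspd1 window, chr1:55088194-55088493, held no match.
Hspe1, chr1:55088034-55088101, plus strand: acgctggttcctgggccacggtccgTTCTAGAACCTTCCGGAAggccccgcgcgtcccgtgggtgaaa

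The comparison was of mRNA levels between Olig1cre/+;Zdhhc5fl/fl and Zdhhc5fl/fl cultures. Of the 59 members, 29 were higher and 30 lower in cKO with a limma adjusted p under 0.05. All listed genes passed that test (100%), with 46.7% higher and 53.3% lower, so the split of the members was near that of the table. In all 59 the values of the genotypes did not overlap, as in 6939 of the 6940 listed genes (100%). The changes were small. Only 9 members changed at least 1.5-fold, 7 upward and 2 downward, which is 15.3% of them against 45.0% of all listed genes. Over the listed genes 17.4% rose and 27.6% fell that far. The median size of the change, without its sign, was 0.32 on the log2 scale for the members and 0.54 for all listed genes.

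**Figure D1:**
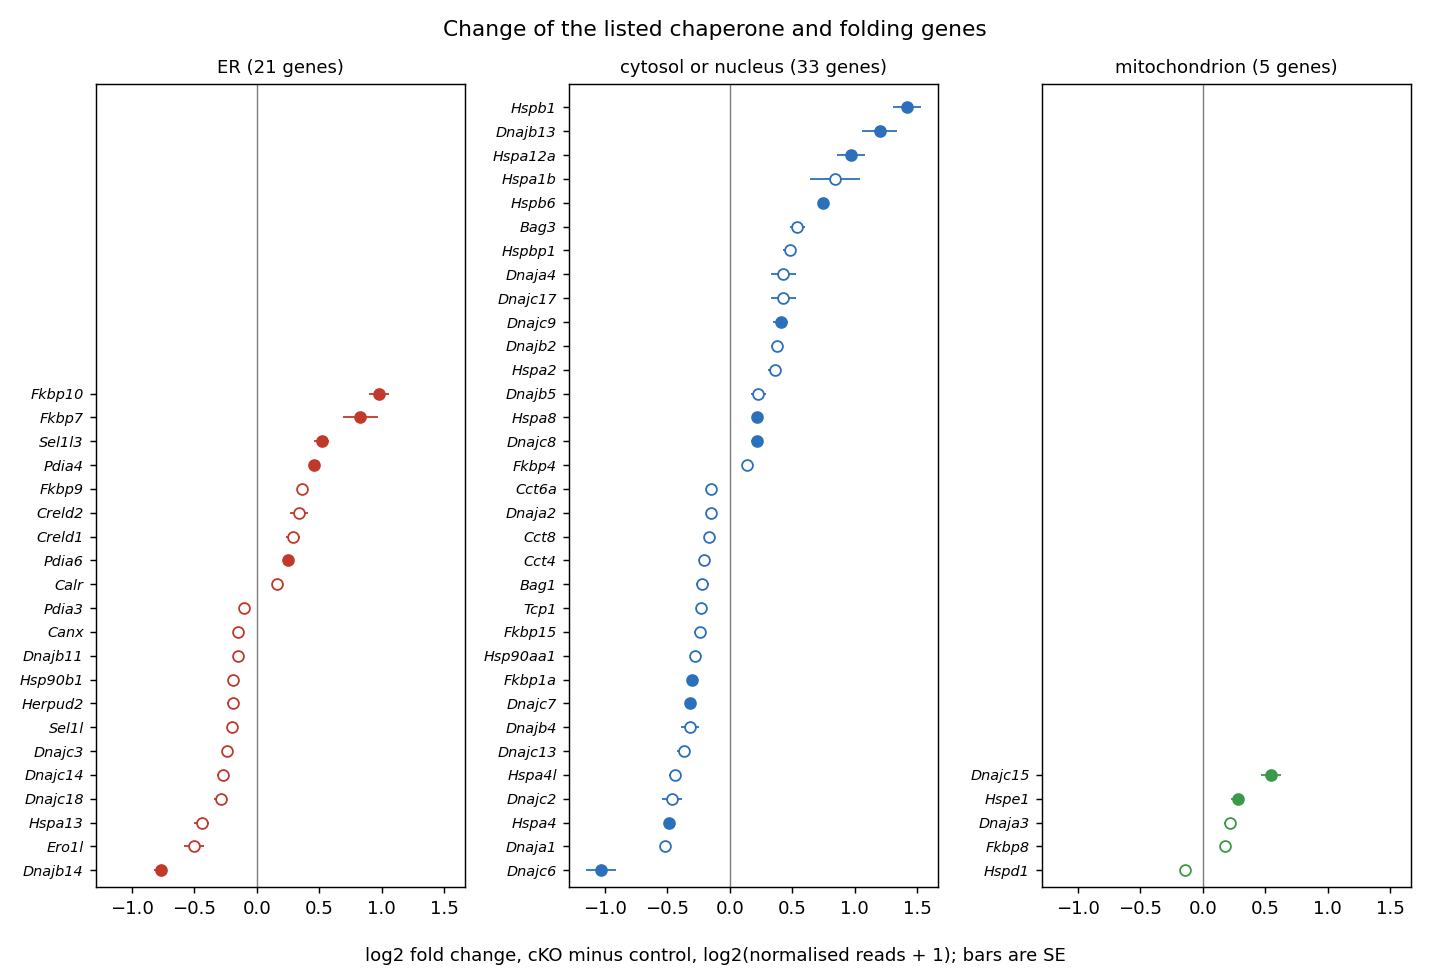
Log2 fold change (cKO minus control, on log2(normalised reads + 1), horizontal axis) of each of the 59 listed members, by compartment, with 2 libraries per genotype. Bars are limma SEs, for which each gene's variance was drawn toward a trend over the listed genes. Filled points are the 19 members that kept their call and direction in every fit; most members lie within 0.5 of 0, and no gap in direction separates the ER from the cytosol panel.

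Each fit was repeated with other scalings, other tests or 1 library left out. It was also repeated with the trend of log2 values over transcript GC content taken out (GC adjustment), or with that over gene length as well (GC and length adjustment). The other scalings were computed over the listed genes only. Falls outnumbered rises among these (53.3% against 46.7%), so a scaling centred on them moves values upward. A turn with such a scaling therefore does not show which scaling is right. The call and the direction were the same in every fit for 19 members (14 higher, 5 lower). This is 32.2% of the members, against 49.5% of all listed genes. The direction turned in at least 1 fit for 31 members, and for 29 of these it did so after GC adjustment or GC and length adjustment. A turn is any change of sign, also to a value near 0 that was not called. The turned value was called for 11 of 21 members after GC adjustment and 13 of 24 after GC and length adjustment. With relative log expression scaling it was called for 1 of 8. Members that rose had a median GC content of 51.6% and a median length of 2803 bases, and members that fell had 44.4% and 5086 bases. Over the 59 members Spearman's rho of the log2 fold change was 0.59 with GC content and -0.61 with length, given as a description since genes share their libraries. Over the listed genes it was 0.51 with GC content (6934 genes) and -0.34 with length. The relation with GC content was therefore not particular to these genes, and the descriptions below start from the members that kept their direction without it. The trend was fitted to called genes only, where small changes are missing. The bin median of all listed genes passed from -0.31 at 47.8% GC to 0.13 at 48.9%. The adjustment can therefore differ from a fit to all tested genes.

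**Figure D2:**
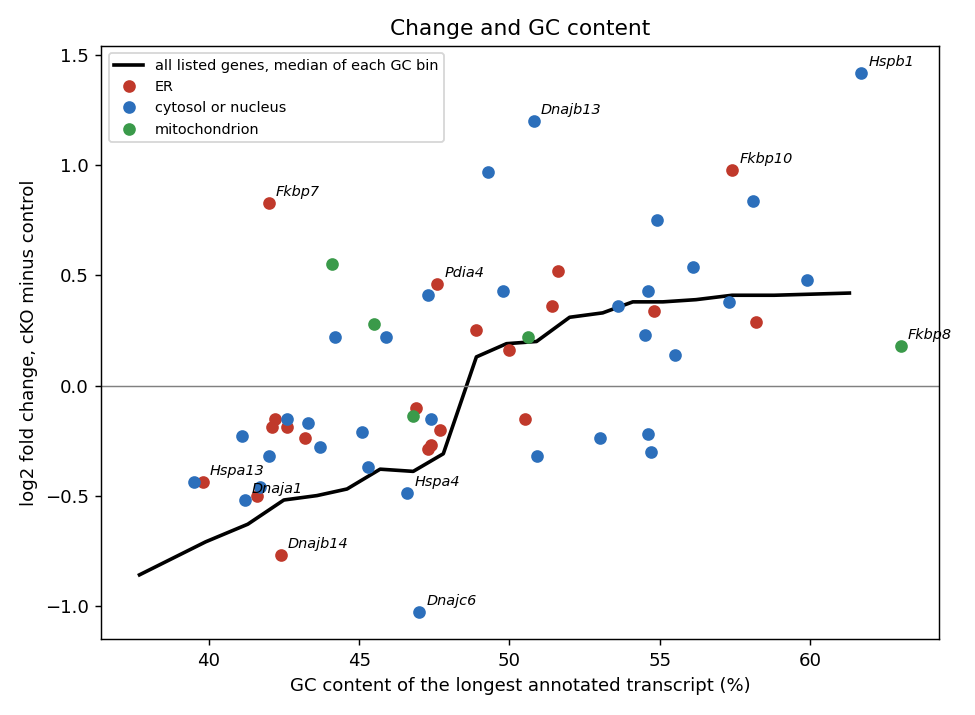
Log2 fold change (vertical axis) of the 59 members against the GC content of the longest annotated transcript (horizontal axis, percent), coloured by compartment, with the median of 20 GC bins of all listed genes as a line. The line passes from -0.86 in the lowest bin to 0.42 in the highest, and members such as Fkbp7, Pdia4 and Dnajc6 lie away from it.

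Among ER members 9 were higher and 12 lower. Those that rose in every fit were Fkbp10, Fkbp7, Sel1l3, Pdia4 and Pdia6, and Dnajb14 fell in every fit. Fkbp10 is a prolyl isomerase of the ER that serves collagen (ENSMUSG00000001555, chromosome 11, 100415697 to 100424824 of GRCm38). It read 522 and 547 in the controls against 1171 and 948 in cKO 1 and cKO 2, 1.98-fold higher (log2 fold change 0.98 ± 0.08 SE, adjusted p 3.2e-10 by limma). Both cKO values stood well above both controls, although they differed from each other by more than the controls did. The log2 fold change was 0.56 after GC adjustment. Fkbp10 shares 6.58% of its exon bases with Nt5c3b on the opposite strand, and the strand setting of the counts was not given. Fkbp7, a relative in the ER lumen, read 119 and 134 in the controls against 207 and 248, 1.79-fold higher (log2 fold change 0.83 ± 0.14 SE, adjusted p 2.01e-05 by limma). With a GC content of 42.0%, its log2 fold change was larger, 1.29, after GC adjustment. Fkbp9, another relative, read 3964 and 4203 against 5159 and 5323 (log2 fold change 0.36), but was at 0.02 and not called after GC and length adjustment.

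The listed FK506-binding proteins of the ER thus were 3 of 3 higher, against 46.7% of all listed genes. Of the 6 in the list, Fkbp2, Fkbp11 and Fkbp14 were not among the listed genes. Collagen genes, markers of pericytes and fibroblasts, moved the same way. Of the 10 markers of these cells 8 were listed, all higher, with summed values of 3962 and 3778 in the controls against 12234 and 11796 in the cKO libraries and none at 0. Serpinh1, the collagen chaperone of the ER, which the name rule does not cover, rose from 3834 and 3749 to 7290 and 7008 (log2 fold change 0.91 ± 0.04 SE, adjusted p 4.21e-16 by limma). The part of these cells in the change of Fkbp10, Fkbp7 and Fkbp9 was not tested.

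Disulfide isomerases form and rearrange cysteine bonds in the ER. Pdia4 (ENSMUSG00000025823, chromosome 6, 47796141 to 47813430) read 5443 and 5357 in the controls against 7437 and 7378 in the cKO libraries. Libraries of a genotype lay close together, and both cKO values were above both controls. It was 1.37-fold higher (log2 fold change 0.46 ± 0.04 SE, adjusted p 6.63e-11 by limma). Its log2 fold change was 0.55 after GC adjustment, 0.27 after GC and length adjustment, and between 0.44 and 0.47 with 1 library left out. Pdia6 rose from 5353 and 5181 to 6222 and 6341 (log2 fold change 0.25 ± 0.04 SE, adjusted p 2.23e-06 by limma), which was 0.10 after GC and length adjustment. Pdia3, the isomerase that works with the lectin chaperones, read 10352 and 10011 against 9590 and 9386. Its log2 fold change of -0.10 turned to 0.09 with relative log expression scaling and 0.05 after GC adjustment. Ero1l, the oxidase that recharges these isomerases, read 569 and 601 against 418 and 407. Its log2 fold change of -0.50 was -0.02, and not called, after GC adjustment.

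Per kilobase of gene model, Calr had the highest control level of the ER members, 5215 normalised reads per kb, followed by Pdia3 with 3244, Canx with 2701 and Pdia4 with 2251. In the cKO libraries Pdia4, at 3088, lay beside Pdia3, at 3023, and above Canx, at 2433. Calr and Canx are the lectin chaperones that retain glycoproteins until they are folded. Calr read 15448 and 14592 against 17064 and 16507, and its log2 fold change of 0.16 turned to -0.14 after GC and length adjustment. Canx read 12711 and 12645 against 11355 and 11484, and its log2 fold change of -0.15 turned to 0.30 after GC adjustment. Mean reads changed by 11.8% for Calr and by -9.9% for Canx, and neither direction held in every fit.

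Dnajb14, a J protein anchored in the ER membrane with its J domain toward the cytosol, was the only ER member that fell at least 1.5-fold (ENSMUSG00000074212, chromosome 3, 137867675 to 137916557). It read 2001 and 1948 in the controls against 1195 and 1125 in the cKO libraries, 1.70-fold lower (log2 fold change -0.77 ± 0.05 SE, adjusted p 1.23e-11 by limma). The values of each genotype lay within a narrow range. The log2 fold change was -0.34 after GC adjustment and -0.16 after GC and length adjustment. Of the 11 ER J proteins in the list 5 were listed, all lower on the authors' scaling, against 53.3% of all listed genes. Only Dnajb14 among them kept call and direction in every fit. Dnajc3, an inhibitor of the stress kinase PERK that also acts as a co-chaperone, and Dnajb11, the co-chaperone of the ER HSP70, had log2 fold changes of -0.24 and -0.15. The value of Dnajc3 turned to 0.14 after GC adjustment, and that of Dnajb11 to 0.04 with relative log expression scaling. Dnajc14 read 2137 and 2032 against 1740 and 1710, and Dnajc18 read 2542 and 2606 against 2049 and 2156. Their calls were lost with relative log expression scaling (log2 fold changes -0.08 and -0.10). Dnajc14 shares 17.0% of its exon bases with Ormdl2 on the opposite strand.

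Hsp90b1, the HSP90 of the ER, read 6262 and 6199 in the controls against 5498 and 5414 in the cKO libraries. Its log2 fold change was -0.19 (SE 0.04, limma adjusted p 7.32e-05) and turned to 0.26 after GC adjustment. Hspa13, an HSP70 relative in the ER, read 1448 and 1497 against 1056 and 1108, and its log2 fold change of -0.44 turned to 0.15. Hspa5 and Hyou1, the main HSP70 and the HSP110 of the ER, were not among the listed genes, nor were Manf, Sdf2l1 and Herpud1. Among secreted and quality control factors, Sel1l3, a relative of the degradation adaptor Sel1l, rose from 1339 and 1227 to 1885 and 1786 (log2 fold change 0.52 ± 0.06 SE, adjusted p 2.81e-08 by limma). Creld1 and Creld2 had log2 fold changes of 0.29 and 0.34, which turned to -0.14 and -0.03 after GC adjustment. Sel1l and Herpud2, both of ER-associated degradation, had -0.20 and -0.19, turning to 0.00 and 0.24 after GC and length adjustment.

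**Figure D3:**
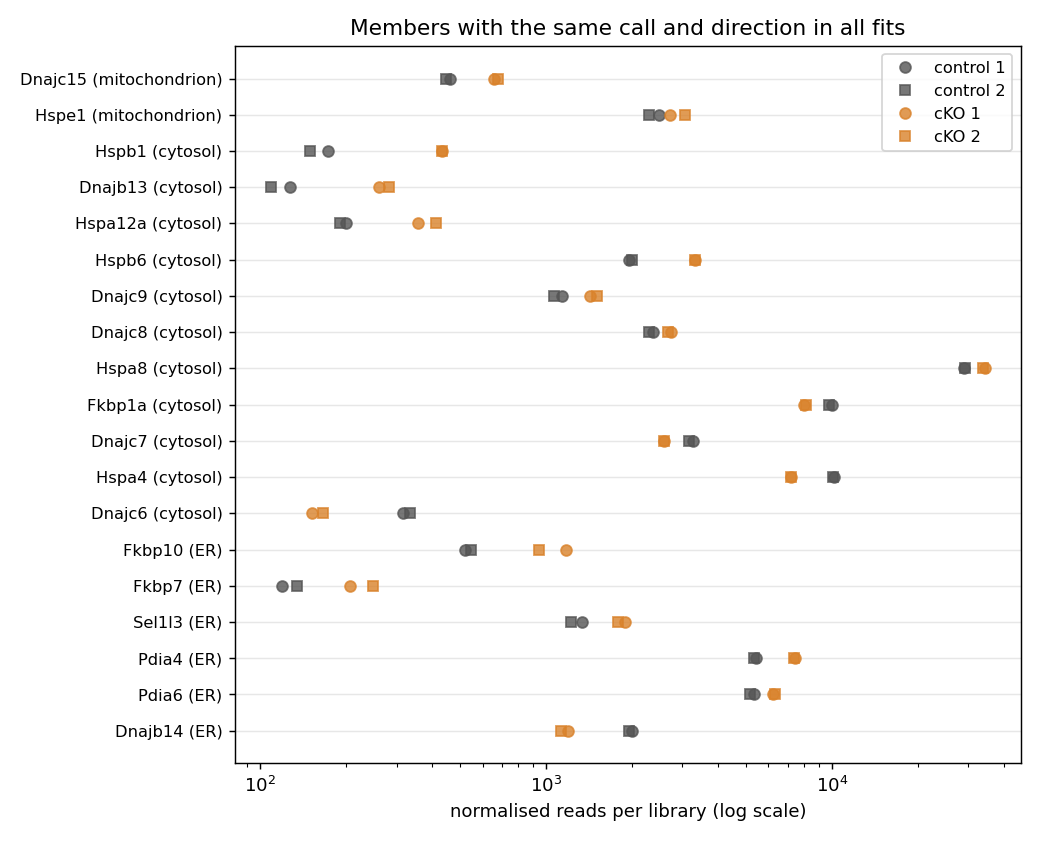
Normalised reads (horizontal axis, log scale) in each of the 4 libraries for the 19 members whose call and direction were the same in every fit, with the compartment in brackets. The control (grey) and cKO (orange) points do not overlap in any row, and Hspb1, Dnajb13, Dnajc6, Hspa12a and Fkbp10 show the widest gaps.

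Among cytosolic and nuclear members 16 were higher and 17 lower, and 7 rose and 4 fell in every fit. Both listed small heat shock proteins, which hold unfolded proteins without ATP, rose. Hspb1, with the largest rise of any member (ENSMUSG00000004951, chromosome 5, 135887919 to 135889563), read 173 and 150 in the controls against 433 and 434 in the cKO libraries, 2.69-fold higher (log2 fold change 1.42 ± 0.11 SE, adjusted p 1.01e-10 by limma). With a GC content of 61.7%, its log2 fold change was 0.95 after GC adjustment. Hspb6 was far more abundant, at 1952 and 1992 against 3334 and 3314, 1.69-fold higher (log2 fold change 0.75 ± 0.04 SE, adjusted p 4.04e-13 by limma). Its log2 fold change was 0.38 after GC adjustment. These were the only 2 of the 8 small heat shock proteins in the list that the table holds, and for both the cKO libraries agreed closely.

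Of the HSP70, HSP110 and HSP90 genes of the cytosol 7 were listed, 4 higher and 3 lower. Hspa8, the constitutive HSP70, had the highest level of all members, 6775 normalised reads per kb in the controls. It rose from 29021 and 29259 to 34299 and 33699 (log2 fold change 0.22 ± 0.03 SE, adjusted p 2.99e-07 by limma), and was at 0.43 after GC adjustment. Many processed copies of Hspa8 exist in the genome, and how the counting split their reads was not given. Hspa12a, a distant relative of HSP70, rose from 200 and 190 to 356 and 412, 1.97-fold higher (log2 fold change 0.97 ± 0.11 SE, adjusted p 6.96e-08 by limma). Hspa1b, a heat-inducible HSP70, read only 58 and 53 against 111 and 90. Its log2 fold change of 0.84 lost its call after GC adjustment (0.41, limma adjusted p 0.183), and its reads can be shared with the near-identical Hspa1a. Hspa2, another HSP70, had a log2 fold change of 0.36, turning to -0.09 after GC and length adjustment.

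Hspa4, an HSP110 that exchanges the nucleotide of HSP70 (ENSMUSG00000020361, chromosome 11, 53259814 to 53300457), had the smallest adjusted p of all members in the authors' deposited table (1.87e-35). It read 10144 and 10087 in the controls against 7210 and 7181 in the cKO libraries, 1.41-fold lower (log2 fold change -0.49 ± 0.03 SE, adjusted p 5.26e-12 by limma). Libraries of a genotype differed by far less than the genotypes did. It fell in every fit, with log2 fold changes of -0.32 after GC adjustment and -0.33 after GC and length adjustment. Hspa4l, its close relative, read 1941 and 1864 against 1442 and 1356, but its log2 fold change of -0.44 turned to 0.18 after GC adjustment. Hsp90aa1, the stress-inducible HSP90, read 8675 and 8654 against 6996 and 7256, and its log2 fold change of -0.28 turned to 0.06. Hspa8 rose and Hspa4 fell in every fit, so these partners of a cycle did not change the same way.

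J proteins of the cytosol and nucleus were 14 of the members, 7 higher and 7 lower. Dnajc6, or auxilin, which recruits HSP70 to strip clathrin from vesicles, had the largest fall of any member (ENSMUSG00000028528, chromosome 4, 101496648 to 101642799). It read 316 and 334 in the controls against 152 and 166 in the cKO libraries, 2.04-fold lower (log2 fold change -1.03 ± 0.12 SE, adjusted p 6.92e-08 by limma). The value was -0.89 after GC adjustment. Dnajb13, a J protein known from cilia and sperm flagella, rose from 127 and 109 to 260 and 281, 2.30-fold higher (log2 fold change 1.20 ± 0.14 SE, adjusted p 4.98e-08 by limma). It shares 11.2% of its exon bases with Ucp2 on the opposite strand, which itself had a log2 fold change of 0.80. Dnajc8, a splicing factor, and Dnajc9, a histone chaperone, rose in every fit with log2 fold changes of 0.22 and 0.41. Dnajc7, which links HSP70 and HSP90, read 3280 and 3158 against 2578 and 2593 (log2 fold change -0.32 ± 0.04 SE, adjusted p 1.04e-06 by limma). It shares 154 exon bases (3.17%) with Cnp on the opposite strand, a myelin gene with a control mean of 71086 and a log2 fold change of -1.34. The part of Cnp reads in the fall of Dnajc7 was not tested.

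Dnaja1, a main partner of Hspa8, read 7159 and 7227 in the controls against 4943 and 5077 in the cKO libraries (log2 fold change -0.52 ± 0.04 SE, adjusted p 7.86e-12 by limma). With a GC content of 41.2% its value was -0.01 after GC adjustment and 0.04 after GC and length adjustment. Dnajc2, which acts on the ribosome, read 591 and 602 against 420 and 449, and its log2 fold change of -0.46 turned to 0.02 after GC adjustment. Dnaja4 and Dnajc17 had log2 fold changes of 0.43 each, and both lost their calls after GC and length adjustment, where Dnajc17 turned to -0.08. Dnaja4 shares 44.1% of its exon bases with Wdr61 on the opposite strand. The directions of Dnajb2 (0.38), Dnajb5 (0.23), Dnajb4 (-0.32) and Dnaja2 (-0.15) turned after GC adjustment, to -0.04, -0.13, 0.14 and 0.27. That of Dnajc13 (-0.37) turned to 0.04 after GC and length adjustment.

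BAG proteins and Hspbp1, nucleotide exchange factors of HSP70, were mixed. Bag3, which is induced by stress and directs clients to autophagy, had a log2 fold change of 0.54, and Hspbp1 had 0.48. Both values came near 0 after GC adjustment, 0.14 for Bag3 and 0.03 for Hspbp1, and that of Hspbp1 turned to -0.10 after GC and length adjustment. Bag1 had -0.22, -0.59 after GC adjustment, and lost its call with relative log expression scaling (-0.03) and without control 1 (-0.14). Of the 8 chaperonin subunits in the list 4 were listed, Tcp1, Cct4, Cct8 and Cct6a, with log2 fold changes of -0.23, -0.21, -0.17 and -0.15. Tcp1 read 4223 and 3973 in the controls against 3394 and 3572 in the cKO libraries. It shares 11.4% of its exon bases with Acat3 on the opposite strand (log2 fold change 0.66). Cct6a shares 12.5% with Psph (0.70) and Cct8 6.22% with Usp16 (-1.10), also on opposite strands. After GC adjustment Tcp1, Cct4 and Cct8 turned to 0.29, 0.05 and 0.20, and Cct6a turned to 0.04 with relative log expression scaling. With TMM scaling Cct8 (-0.10) and Cct6a (-0.08) were not called, while Tcp1 (-0.17) and Cct4 (-0.14) stayed lower and called. All 4 were called lower on the authors' scaling, but none was with relative log expression scaling or after GC adjustment. After GC and length adjustment Cct6a was called lower (-0.20).

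The FK506-binding proteins of the cytosol were 3 of the members. Fkbp1a, the small prolyl isomerase that binds the drug FK506 and calcium release channels, read 10014 and 9764 in the controls against 7974 and 8129 (log2 fold change -0.30 ± 0.03 SE, adjusted p 5.01e-08 by limma). It fell in every fit, further after GC adjustment (-0.67). Fkbp15 had -0.24 and was not called with relative log expression scaling (-0.05). Fkbp4, a co-chaperone of HSP90 and steroid receptors, had 0.14, which turned to -0.24 after GC adjustment. On the authors' scaling the listed members of this family in the ER were higher. In the cytosol Fkbp1a and Fkbp15 were lower and Fkbp4 was higher. The contrast between these genes was not tested.

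Among the 5 mitochondrial members 4 were higher and 1 lower, and 2 rose in every fit. Dnajc15, a J protein of the inner membrane's import motor, read 462 and 447 in the controls against 658 and 678 in the cKO libraries (log2 fold change 0.55 ± 0.08 SE, adjusted p 1.85e-06 by limma), and was at 0.87 after GC adjustment. Hspe1 and Hspd1 encode the lid and the barrel of the mitochondrial chaperonin. Hspe1 rose from 2475 and 2291 to 2707 and 3076 (log2 fold change 0.28 ± 0.05 SE, adjusted p 0.000114 by limma). Hspd1 read 5237 and 5290 against 4768 and 4816, and its log2 fold change of -0.14 turned to 0.06 with relative log expression scaling and 0.02 after GC adjustment. The pair thus differed in direction on the authors' scaling, while Hspe1 alone kept its direction, and their exons share 112 bases. Dnaja3, a J protein of the matrix, read 1455 and 1423 against 1642 and 1703, and its log2 fold change of 0.22 turned to -0.03 after GC and length adjustment. Fkbp8, on the outer membrane, read 5932 and 6269 against 7244 and 6614, and its 0.18 turned to -0.31 after GC adjustment.

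**Figure D4:**
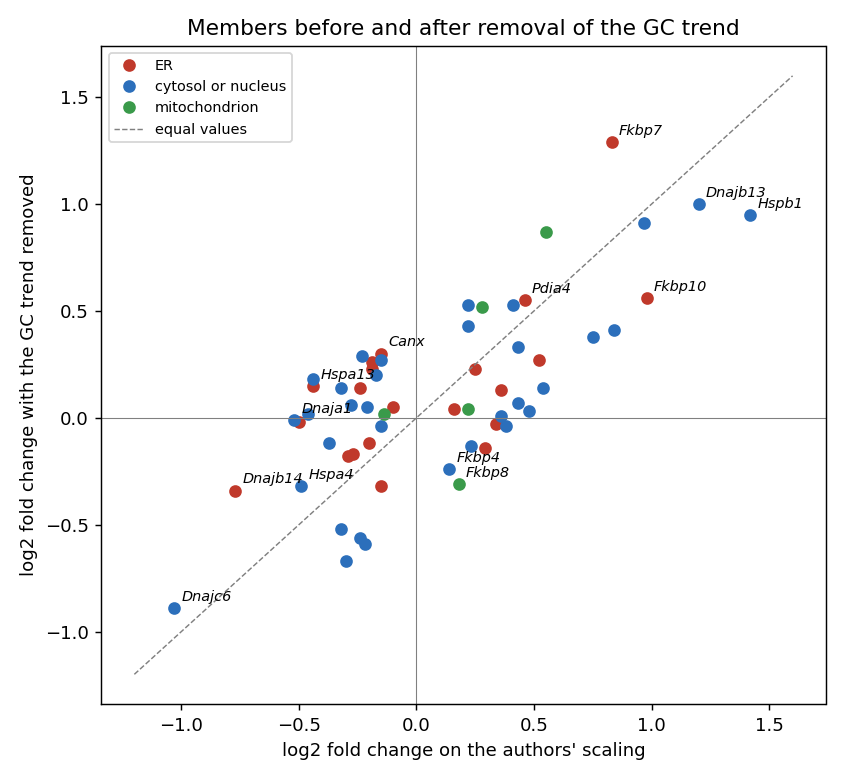
Log2 fold change of each of the 59 members on the authors' scaling (horizontal axis) and after GC adjustment (vertical axis), coloured by compartment, with a dashed line of equal values. Points at upper left and lower right, among them Canx, Hspa13, Fkbp4 and Fkbp8, are members whose direction turned.

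ER and cytosolic members were then set side by side. The median log2 fold change was -0.15 in both lists, beside -0.22 for all listed genes. The difference between the 2 medians, ER minus cytosol, was -0.003, against an SD of 0.025 between libraries of a genotype. Genes with small changes are not in the table, so the median of a list lies at the edge of a gap between its falls and its rises and moves with the place of a few genes. With only the 13 listed ER lumen members, the ER median was 0.16 and the difference 0.308. Changes of at least 1.5-fold were made by 3 of 21 ER members (Fkbp10, Fkbp7 and Dnajb14) and by 6 of 33 cytosolic members (Hspb1, Dnajb13, Hspa12a, Hspa1b, Hspb6 and Dnajc6). The difference between the compartments was not tested, because genes are not replicates.

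Summed over the listed members, the ER genes held 84821 and 83302 normalised reads in the controls against 85282 and 84947 in the cKO libraries, a change of 1.3%. The cytosolic genes held 119176 and 118406 against 115142 and 115722, a change of -2.8%. For every 100 reads of the cytosolic members, the ER members had 71.2 and 70.4 in the controls against 74.1 and 73.4 in the cKO libraries. The genotypes did not overlap in this ratio, but 6939 of the 6940 listed genes did not overlap either. The summed genes were listed because they differed between these same libraries, so the gap is not independent support. Members that were not listed have no part in the sums. An exact permutation test of 2 against 2 libraries cannot give a two-sided p below 0.333. The mitochondrial members held 15561 and 15720 against 17019 and 16886, a change of 8.4%. These sums hold on the authors' scaling only. Relative log expression scaling, computed over the listed genes alone, moved the median log2 fold change of all listed genes by 0.191. That is more than the change in either the ER or the cytosolic sum, but genes not called by the authors had no part in that scaling.

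Other genes of protein folding, from lists outside the name rule, were also mixed. Of 20 genes of the unfolded protein response 13 were listed, 8 higher and 5 lower, and 5 of them kept call and direction in every fit. Nupr1, a stress-induced chromatin protein, rose from 39 and 43 to 156 and 126 (log2 fold change 1.75 ± 0.20 SE, adjusted p 6.96e-08 by limma). Creb3l2, an ER-bound transcription factor, fell from 2500 and 2578 to 1352 and 1339 (log2 fold change -0.92 ± 0.05 SE, adjusted p 7.48e-14 by limma). Eif2ak3, which encodes the stress sensor PERK, fell from 1408 and 1341 to 888 and 946 (log2 fold change -0.58) and kept call and direction in every fit. It and Creb3l1, another ER-bound factor of this list that rose in every fit (1.21), were chosen after their values were seen. Xbp1, the factor spliced by IRE1, had a log2 fold change of 0.24, turning to -0.09 after GC adjustment, and Atf6 had -0.25, turning to 0.07 after GC and length adjustment. Atf4 and Ddit3 were not among the listed genes. A gene count does not read the splicing of Xbp1 or the cleavage of ATF6.

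Of 32 other ER folding enzymes 21 were listed, 12 higher and 9 lower. Serpinh1 had the largest rise, and Clgn, a calnexin relative of the testis, the largest fall, from 310 and 272 to 122 and 113 (log2 fold change -1.30). Of 21 genes of ER-associated degradation 7 were listed, 2 higher and 5 lower. Edem1, which marks misfolded glycoproteins for removal, fell from 1697 and 1602 to 1034 and 996 (log2 fold change -0.70 ± 0.06 SE, adjusted p 1.91e-10 by limma), and Derl1 had 0.18, turning to -0.03 after GC and length adjustment. Among 26 cytosolic partners and heat shock factors 14 were listed, 7 higher and 7 lower, and only Cdc37l1, a relative of the HSP90 partner Cdc37, kept call and direction in every fit. It fell from 4056 and 4087 to 1771 and 1633 (log2 fold change -1.26 ± 0.05 SE, adjusted p 5.18e-17 by limma). Pfdn5, a prefoldin subunit, had the largest rise of that list, 0.37, which was 0.00 after GC adjustment and turned to -0.14 after GC and length adjustment. In the mitochondrial list 7 of 11 genes were listed, 6 higher and 1 lower, with Trap1, the mitochondrial HSP90, at 0.45 (0.04 after GC and length adjustment) and Grpel2, a nucleotide exchange factor, at -0.41.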

How the data were processed

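RNA-seq libraries of 2 control and 2 cKO samples of cultured oligodendrocytes were analysed from 1 deposited table. The deposited values behave as a normalised signal: each is a whole count of reads scaled by a factor of its own library. It also holds a mean per genotype, a log2 fold change, p-values and adjusted p-values, per the file headers. The submitters' processing notes name DESeq2 and the builds mm10 and GRCm38. The aligner, counting tool, strand setting and annotation release are not given in the sources used here. Values were whole multiples of a step (100% within 0.01 read), worth 1.0, 1.0181, 0.8165 and 1.1866 in control 1, control 2, cKO 1 and cKO 2. Columns of other samples numbered 0.

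The table lists only genes called by the authors, so calls made here are not independent of theirs, and variances pooled over such genes may be too small. Genotypes were compared with limma 3.58.1 (R 4.3.3) on log2(value + 1) with a variance trend, on all 6940 genes with a value of at least 1 in 2 libraries. SEs and p-values used a variance drawn toward that trend, so an SE can be smaller than the gene's own libraries alone would give. P-values were adjusted by Benjamini-Hochberg over 17347 genes, and 0.05 was the threshold. Alternatives were other pseudocounts (0.5, 5), filters and scalings, edgeR 4.0.16 and DESeq2 1.42.0 on recovered reads, a replicate block, loess removal of GC and length trends, and leaving out libraries. The other scalings and the trends were computed over the listed genes only. Recovered reads came out whole for 100% of values, and edgeR called 6940 genes and DESeq2 6926. The scripts were tested on simulated data. GC content came from the longest GENCODE M21 transcript (6934 of 6940 genes, all 59 members), gene length from the table. Promoters were RefSeq windows.

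Members and lists were chosen with earlier results of these data known. Named members were Pdia4, anchor chaperones, and the 5 largest rises and falls in each compartment, the others being given by log2 fold change. Of each pathway list the largest rise and fall were named, with Xbp1, Atf4, Ddit3 and Atf6.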

Additional observations from a re-analysis of the deposited data

How the results depend on the processing

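With other pseudocounts, no filter, edgeR or DESeq2 on recovered reads, and adjustment over the listed genes only, 29 members were higher and 30 lower. The fit with the replicate number as a block gave 29 and 30 as well, and same-numbered libraries did not deviate together (Pearson r -0.002 over 6443 genes). With a value of at least 100 in 2 libraries, which drops Hspa1b, 28 were higher and 30 lower. Leaving out 1 library gave 29 higher and 27 to 30 lower members, 10 to 12 lower in the ER, 16 to 17 in the cytosol and 0 to 1 in the mitochondrion.

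Scaling and composition changed more. Relative log expression scaling, computed over the listed genes only, moved their median by 0.191 on the log2 scale and the share of higher calls from 46.7% to 52.7%. That share was 41.7% after GC adjustment and 40.9% without GC and length. Lower members numbered 12 with relative log expression scaling, 13 after GC adjustment and 16 without GC and length. In the ER these counts were 3, 5 and 6, and in the cytosol 9, 7 and 8. Mitochondrial members called higher were 2 with either trend removal. Those called lower were 0 with TMM or relative log expression scaling and 2 with GC and length removed. Over ER lumen members only, 6 were lower.

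The ER median was -0.08 with TMM, 0.04 with relative log expression scaling, 0.13 and 0.02 with GC, and GC and length, removed, 0.16 for the lumen only and -0.16 to -0.13 without 1 library. The cytosolic median was -0.08, 0.04, 0.06 and 0.04 in the same fits and -0.14 to -0.08 without 1 library. At least 5% of exon bases were shared with another coding gene in 12 members. These were Cct6a, Cct8, Dnaja1, Dnaja4, Dnajb13, Dnajc14, Dnajc17, Dnajc7, Fkbp10, Hspb6, Hspe1 and Tcp1. Leaving them out, an alternative chosen after seeing the data, gave a cytosolic median of -0.00 and an ER minus cytosol difference of -0.148. That difference was 0.070 with GC removed, 0.308 for the lumen only, and -0.06 to -0.004 without 1 library.

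Log2 fold changes that turned with relative log expression scaling were Canx 0.04, Cct6a 0.04, Cct8 0.02, Dnaja2 0.04, Dnajb11 0.04, Herpud2 0.00, Hspd1 0.06, Pdia3 0.09. With GC removed they were Canx 0.30, Cct4 0.05, Cct8 0.20, Creld1 -0.14, Creld2 -0.03, Dnaja2 0.27, Dnajb2 -0.04, Dnajb4 0.14, Dnajb5 -0.13, Dnajc2 0.02, Dnajc3 0.14, Fkbp4 -0.24, Fkbp8 -0.31, Herpud2 0.23, Hsp90aa1 0.06, Hsp90b1 0.26, Hspa13 0.15, Hspa4l 0.18, Hspd1 0.02, Pdia3 0.05, Tcp1 0.29, Xbp1 -0.09. With GC and length removed they were Calr -0.14, Canx 0.26, Cct8 0.04, Creld1 -0.16, Creld2 -0.17, Dnaja1 0.04, Dnaja2 0.11, Dnaja3 -0.03, Dnajb2 -0.06, Dnajb4 0.20, Dnajb5 -0.06, Dnajc13 0.04, Dnajc17 -0.08, Dnajc3 0.12, Fkbp4 -0.31, Fkbp8 -0.29, Herpud2 0.24, Hsp90b1 0.19, Hspa13 0.16, Hspa2 -0.09, Hspa4l 0.23, Hspbp1 -0.10, Sel1l 0.00, Tcp1 0.26, Xbp1 -0.16, Atf6 0.07, Derl1 -0.03, Pfdn5 -0.14. Whether these trends are technical was not tested. With 2 libraries per genotype and only called genes listed, small changes and the other members were not analysed here.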

Other observations

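Among the other listed genes, the ERSE was also found in the promoter windows of Adcy3, Gm6566 and Hnrnpa3, which had log2 fold changes of 0.55, -1.83 and -1.08. Of the listed-gene windows 0.13% held it, against 0.119% of all windows.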
